A study of Mus musculus with 6 samples.

Results

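Calcineurin signalling and the fibre-type repressors were followed through 10 genes, chosen by name with earlier results of these data known. They include the catalytic subunits Ppp3ca and Ppp3cb, the transcription factors Nfatc1 to Nfatc4, and the calcineurin inhibitors Rcan1 and Rcan2. The repressors are Sox6 and Prox1. These are 10 of the 55286 gene symbols in the deposited count table, and all 10 were among the 17400 genes with enough counts to be tested. The series compared transdifferentiated cells, which are cells made by direct reprogramming, with muscle and with mouse embryonic fibroblasts (MEF), each with 2 RNA sequencing libraries. The labels give a cell type for each group and no genotype, strain, agent or treatment. The names of the MEF libraries hold the letters Tau, which were not read as a genotype here. The conversion factor, the time after it, the origin and age of the muscle and whether the replicates are separate cultures or animals were not given in the sources used here, so p-values measure only the spread between these libraries, which may be technical.

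Calcineurin is a phosphatase switched on by calcium and calmodulin. It removes phosphates from the cytoplasmic NFATc proteins, which then enter the nucleus, and RCAN proteins bind calcineurin and hold it back. In adult skeletal muscle the pathway is known for promoting the slow, oxidative fibre programme, whereas Sox6 is known in mouse muscle for repressing slow-fibre genes, and Prox1 is known from mouse and zebrafish muscle as a factor that sets fibre-type gene expression. Because NFATc activity is set by phosphorylation and location, RNA levels describe the supply of the parts and not the activity of the pathway.

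The libraries held 16817033 and 21072555 counts in transdifferentiated cells, 24584951 and 16952000 in muscle, and 18997705 and 18978216 in MEF, and 3 counts, the limit that a count of 0 allows, equal 0.128 to 0.182 CPM, counts scaled to a common library size, in a library. These limits cover counting error only. The summed level of 8 skeletal muscle markers was 33653 to 50768 CPM in transdifferentiated cells, 46365 to 50599 CPM in muscle and 371 to 562 CPM in MEF. The summed level of 8 fibroblast markers was 18683 to 25277 CPM in transdifferentiated cells, 13144 to 22082 CPM in muscle and 35217 to 53062 CPM in MEF. Transdifferentiated and muscle libraries thus had far more muscle marker RNA than MEF, and all 6 libraries had fibroblast marker RNA. Of the 8 fibroblast markers, Pdgfra (log2 fold change 3.22), Dcn (2.81) and Thy1 (2.22) were called higher in transdifferentiated cells over muscle, and the other 5 were not called there. The 8 macrophage and leukocyte markers summed to 274 to 277 CPM in transdifferentiated cells, 1.82 to 3.11 CPM in muscle and 30.0 to 40.3 CPM in MEF. Replicates of a group also differed with the GC content of the transcripts: across 17042 genes, which are not independent replicates, the log2 difference of replicate 1 minus replicate 2 correlated with transcript GC at r = -0.57 in transdifferentiated cells, 0.33 in muscle and 0.57 in MEF.

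Relative to MEF, transdifferentiated cells had higher RNA of Nfatc2, Prox1, Sox6, Rcan1, Ppp3ca and Ppp3cb and lower RNA of Nfatc4. These are 6 higher and 1 lower of 10, at an adjusted p under 0.05 in edgeR's quasi-likelihood test with Benjamini-Hochberg adjustment over all tested genes, where 27.3% of all tested genes were called (15.9% higher and 11.3% lower). Muscle differed from MEF in 5 of the 10, with Prox1, Nfatc2, Sox6 and Ppp3cb higher and Nfatc4 lower, against 35.6% of all tested genes (17.3% higher and 18.3% lower). Between transdifferentiated cells and muscle 0 of the 10 were called by edgeR and 0 by DESeq2, against 10.04% of all tested genes by edgeR (7.58% higher and 2.46% lower), and 3 of them (Prox1, Nfatc4 and Sox6) had an unadjusted p under 0.05. These are levels in bulk RNA, where fewer cells of a type and less RNA per cell cannot be told apart. The median log2 fold change of the 10 genes was 0.93 in transdifferentiated cells over MEF, 0.49 in muscle over MEF and 0.30 in transdifferentiated cells over muscle, beside medians of 0.07, 0.00 and 0.03 for all tested genes in the same comparisons. The first and second of these comparisons share the MEF libraries. The comparisons that involve transdifferentiated cells share their libraries, as those that involve muscle share its libraries. Because the genes were chosen with earlier results of these data known, the contrast with all tested genes is only descriptive.

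The libraries of the groups compared stood apart without overlap for 10 of the 10 genes in transdifferentiated cells against MEF, with 7 higher and 3 lower, and 60.6% of all tested genes did so (32.7% higher and 27.9% lower). They stood apart for 8 of the 10 in muscle against MEF, with 6 higher and 2 lower (68.8% of all tested genes, 34.5% higher and 34.3% lower), and for 8 of the 10 in transdifferentiated cells against muscle with 5 higher and 3 lower (48.9% of all tested genes, 26.4% higher and 22.5% lower).

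**Figure D1:**
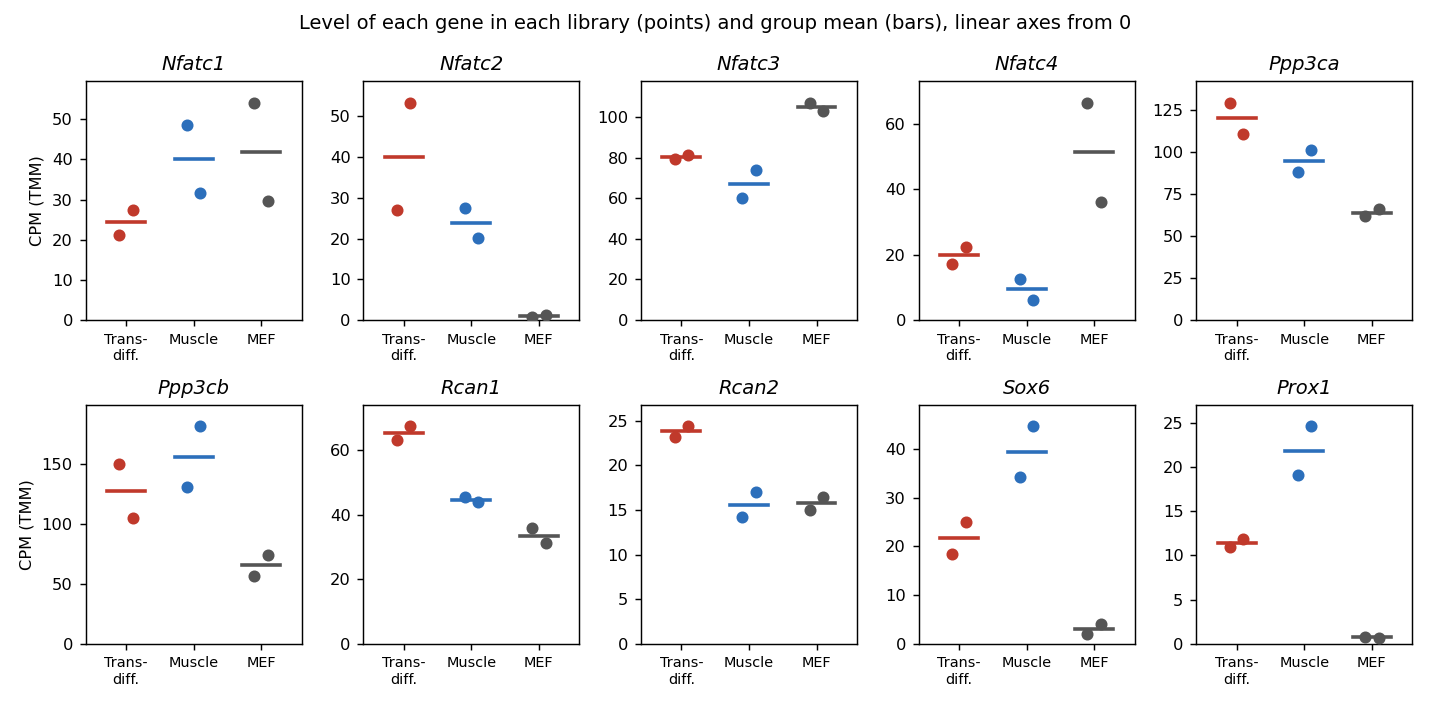
Level of each of the 10 genes in CPM on linear axes from 0, with 1 point for each library and a bar at the mean of the 2 libraries of transdifferentiated cells, muscle and MEF from left to right. Nfatc2, Sox6 and Prox1 lie near 0 in both MEF libraries and far above it in the other 4 libraries, while Nfatc4 is highest in MEF.

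Of the catalytic subunit genes of calcineurin, Ppp3ca and Ppp3cb were each called higher in transdifferentiated cells over MEF, by a little under 1 on the log2 scale, and no difference was called for Ppp3cc (log2 fold change 0.16 ± 0.34, adjusted p = 0.778, edgeR). Ppp3ca encodes the alpha isoform of the calcineurin catalytic subunit (mm10 chr3:136670124-136937727, plus strand). Its level was 129 and 111 CPM in transdifferentiated cells, 88.2 and 101 CPM in muscle, and 62.1 and 66.0 CPM in MEF. The transdifferentiated libraries were the highest and the MEF libraries the lowest, with no overlap between any of the groups. The log2 fold change was 0.91 ± 0.24 (SE) over MEF in transdifferentiated cells (adjusted p = 0.0222, edgeR), 0.57 ± 0.24 over MEF in muscle (adjusted p = 0.0986) and 0.34 ± 0.24 in transdifferentiated cells over muscle (adjusted p = 0.509, 95% interval -0.20 to 0.88). The call against MEF was lost in 6 of 12 alternative settings, among them the fits without MEF replicate 1, MEF replicate 2, muscle replicate 1, muscle replicate 2 or transdifferentiated replicate 1, where the adjusted p reached at most 0.108. With a GC offset the difference of muscle over MEF was called as well (adjusted p = 0.0115).

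Ppp3cb encodes the beta isoform of the same subunit (mm10 chr14:20499364-20546573, minus strand). Its level was 149 and 105 CPM in transdifferentiated cells, 131 and 181 CPM in muscle, and 56.7 and 73.8 CPM in MEF. Every library of transdifferentiated cells and of muscle lay above both MEF libraries, and the transdifferentiated and muscle libraries overlapped. Ppp3cb was 1.94-fold higher in transdifferentiated cells than in MEF (log2 fold change 0.96 ± 0.30, adjusted p = 0.0411, edgeR) and 2.39-fold higher in muscle than in MEF (1.25 ± 0.30, adjusted p = 0.0105). Set against muscle, transdifferentiated cells had a log2 fold change of -0.30 ± 0.29 (adjusted p = 0.683, 95% interval -0.96 to 0.37). The call in transdifferentiated cells was lost in 6 of 12 alternatives, including a fit without the muscle libraries (adjusted p = 0.0638) and the fits without transdifferentiated replicate 1, muscle replicate 1, muscle replicate 2 or MEF replicate 1 (adjusted p at most 0.202). The call in muscle was lost without muscle replicate 2 (adjusted p = 0.0969).

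Per kilobase of exon, Ppp3ca and Ppp3cb summed to 26.4 ± 4.94 CPM per kb in transdifferentiated cells, 27.2 ± 4.96 in muscle and 13.8 ± 1.65 in MEF (SD, n = 2 each). Ppp3ca made up 45.8 ± 3.53% of that sum in transdifferentiated cells, 35.2 ± 2.97% in muscle and 46.6 ± 3.58% in MEF. The transdifferentiated and MEF libraries overlapped in this share, and both muscle libraries lay below them. These shares were not put to a test, since the smallest two-sided p an exact permutation of 2 and 2 libraries allows is 0.333.

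The NFATc factors, which carry the signal to the nucleus, did not move as a family. Nfatc2 was nearly absent from MEF and present in both other groups, Nfatc4 was lower in both, and no difference was called for Nfatc1 or Nfatc3.

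Nfatc2 (mm10 chr2:168476410-168601657, minus strand), a family member known in mouse for its part in T cells and in the growth of young myotubes, had 26.9 and 53.3 CPM in transdifferentiated cells, 27.6 and 20.2 CPM in muscle, and 0.660 and 1.12 CPM in MEF. The MEF values rest on 12 and 23 reads. Both transdifferentiated libraries and both muscle libraries were far above MEF, and the transdifferentiated and muscle libraries overlapped. The level in transdifferentiated cells was 44.5-fold that in MEF (log2 fold change 5.48 ± 0.49, adjusted p = 7.7e-05, edgeR) and the level in muscle was 26.6-fold that in MEF (4.73 ± 0.48, adjusted p = 1.2e-04). In transdifferentiated cells over muscle the log2 fold change was 0.74 ± 0.38 (adjusted p = 0.323, 95% interval -0.13 to 1.62). Nfatc2 is also expressed in leukocytes. Of the 8 macrophage and leukocyte markers 7 were tested, and 7 of 7 were called higher in transdifferentiated cells over MEF; their part in the Nfatc2 level there was not tested. In muscle, where Nfatc2 stood at 20.2 and 27.6 CPM, Ptprc, Adgre1 and Tyrobp of those 8 markers had 0 counts. The other markers had reads in at least 1 muscle library, Cd68 the most, and the 8 summed to 1.82 to 3.11 CPM there. Their part in the Nfatc2 level in muscle was not tested. The 6 lymphocyte markers summed to 9.24 to 10.3 CPM in transdifferentiated cells, 1.03 to 3.58 CPM in muscle and 0.0550 to 0.437 CPM in MEF. Most of the sum in transdifferentiated cells and muscle was the T cell marker Cd3g. It had 9.94 and 8.95 CPM in transdifferentiated cells, 2.98 and 0.851 CPM in muscle and 0 counts in MEF. Cd3e of the same list had 0.168 and 0.145 CPM in transdifferentiated cells and 0.469 and 0.0608 CPM in muscle. Cd3d had 0.168 and 0.0967 CPM in transdifferentiated cells and 0.0852 and 0.0608 CPM in muscle. Cd3g was the 1 lymphocyte marker tested, and it was called higher in transdifferentiated cells over MEF, in muscle over MEF and in transdifferentiated cells over muscle. The B cell marker Ms4a1 was at 0 in all 6 libraries. The part of lymphocytes in the Nfatc2 level was not tested.

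Nfatc4 (mm10 chr14:55823144-55833943, plus strand), a member known for its roles in the heart and nervous system, had 17.2 and 22.4 CPM in transdifferentiated cells, 12.6 and 6.14 CPM in muscle, and 66.4 and 36.2 CPM in MEF. The groups did not overlap, with MEF highest and muscle lowest. The log2 fold change was -1.37 ± 0.42 in transdifferentiated cells over MEF (adjusted p = 0.0392, edgeR) and -2.44 ± 0.43 in muscle over MEF (adjusted p = 0.00256), which is 5.44-fold lower in muscle. The log2 fold change of transdifferentiated cells over muscle was 1.07 ± 0.42 (unadjusted p = 0.0318, adjusted p = 0.173, 95% interval 0.12 to 2.03). That difference was called without a filter on low counts (adjusted p = 0.0271) and with an offset for GC content (log2 fold change 1.22, adjusted p = 0.00706); across the 12 alternatives its log2 fold change was positive each time. The call against MEF in transdifferentiated cells was lost in 3 of 12 alternatives, among them the fits without MEF replicate 1 (adjusted p = 0.177) and without transdifferentiated replicate 1 (adjusted p = 0.120). Nfatc4 had the highest transcript GC content of the 10 genes, 58.8%, and its libraries were ordered within each group as the GC relation runs: replicate 2 was higher in transdifferentiated cells, and replicate 1 was higher in muscle and in MEF.

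Nfatc1 (mm10 chr18:80606205-80713071, minus strand), a member known in adult mouse muscle as a sensor of slow motor activity, had 21.2 and 27.5 CPM in transdifferentiated cells, 48.5 and 31.6 CPM in muscle, and 54.1 and 29.6 CPM in MEF. The transdifferentiated libraries were the lowest, just below the second MEF library, and the muscle and MEF libraries overlapped. Its log2 fold change was -0.78 ± 0.36 in transdifferentiated cells over MEF (adjusted p = 0.148, edgeR, 95% interval -1.60 to 0.04), -0.06 ± 0.36 in muscle over MEF (adjusted p = 0.910, 95% interval -0.88 to 0.75) and -0.72 ± 0.36 in transdifferentiated cells over muscle (adjusted p = 0.309). The first of these passed the threshold with a GC offset (adjusted p = 0.0234) and without MEF replicate 2 (adjusted p = 0.0333).

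Nfatc3 (mm10 chr8:106058840-106130537, plus strand), a widely expressed member, had 79.3 and 81.2 CPM in transdifferentiated cells, 60.1 and 73.9 CPM in muscle, and 107 and 103 CPM in MEF. MEF was highest and muscle lowest, with no overlap. The differences were small: -0.39 ± 0.24 on the log2 scale in transdifferentiated cells over MEF (adjusted p = 0.271, edgeR) and -0.65 ± 0.24 in muscle over MEF (adjusted p = 0.0643). Against muscle, that of transdifferentiated cells was 0.26 ± 0.24 (adjusted p = 0.648, 95% interval -0.28 to 0.80). With a GC offset the difference between muscle and MEF was called (-0.59, adjusted p = 0.0306). Nfatc3 shares 219 exon bases, 1.87% of its own, with Esrp2 on the opposite strand, which had 2.01 to 5.67 CPM in the 6 libraries.

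Per kilobase of exon, the 4 NFATc genes summed to 17.3 ± 3.11 CPM per kb in transdifferentiated cells, 15.0 ± 2.06 in muscle and 23.5 ± 6.22 in MEF (SD, n = 2 each). Nfatc2 took 21.3 ± 6.37% in transdifferentiated cells, 15.0 ± 1.22% in muscle and 0.388 ± 0.233% in MEF, while Nfatc4 took 19.7 ± 0.0853% in transdifferentiated cells, 10.5 ± 3.82% in muscle and 36.8 ± 5.90% in MEF. Nfatc3 held close to the same share in all 3 groups, 40.1 ± 6.54% in transdifferentiated cells, 39.0 ± 10.9% in muscle and 39.4 ± 9.34% in MEF. Nfatc1 took 18.8 ± 0.0915% in transdifferentiated cells, 35.4 ± 5.86% in muscle and 23.4 ± 3.67% in MEF, and its muscle libraries lay above both other groups.

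**Figure D2:**
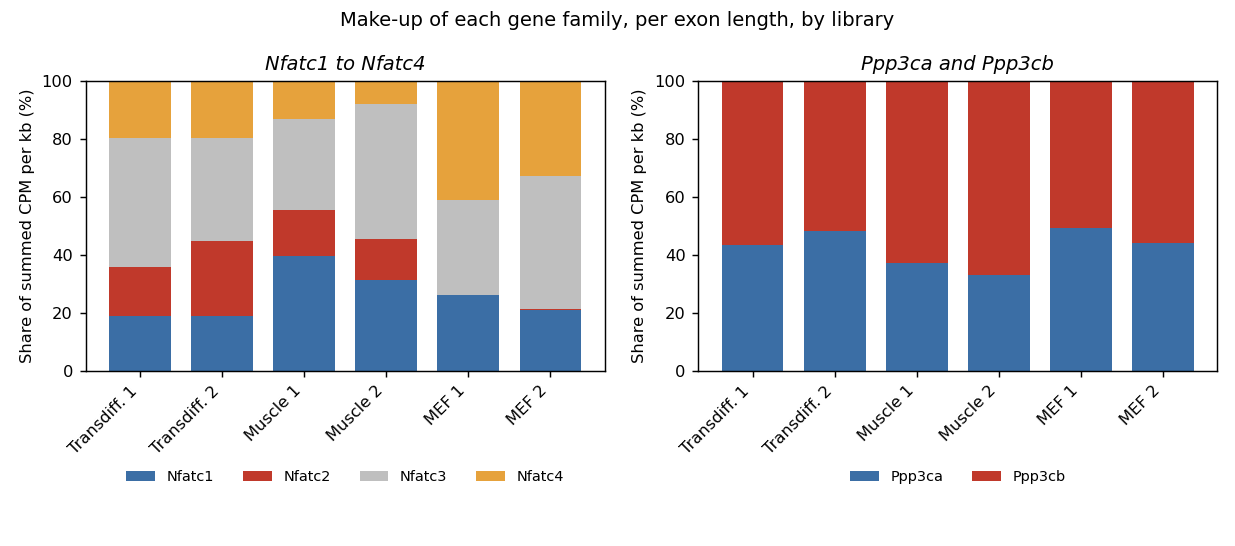
Make-up of the NFATc family (left) and of Ppp3ca and Ppp3cb (right) in each library, as the percent of the summed CPM per kb of exon, with transdifferentiated libraries, then muscle, then MEF. Nfatc2 fills 14.2% to 25.8% of the bar in the transdifferentiated and muscle libraries and under 1% in MEF, where Nfatc4 fills 32.7% to 41.0%.

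Rcan1 (mm10 chr16:92391953-92470867, minus strand) inhibits calcineurin and is itself a known target of NFAT. One of its start sites is known to answer to NFAT, through a cluster of GGAAA sites upstream of an alternative first exon. The 250 bases upstream of each of 2 RefSeq start sites are shown to compare the GGAAA content, with matches to GGAAA on either strand in capitals, read 5′ to 3′ on the minus strand of GRCm38.p6 (the mm10 build). The window of start 1, the more upstream of the 2, is chr16:92466170-92466419 and that of start 2 is chr16:92400079-92400328. Both windows lie inside the gene interval given above. All windows of this length upstream of RefSeq starts, 32851 in all, held at least 1 match in 55.6% and at least 3 in 6.39% of cases.
Rcan1 upstream of start 1: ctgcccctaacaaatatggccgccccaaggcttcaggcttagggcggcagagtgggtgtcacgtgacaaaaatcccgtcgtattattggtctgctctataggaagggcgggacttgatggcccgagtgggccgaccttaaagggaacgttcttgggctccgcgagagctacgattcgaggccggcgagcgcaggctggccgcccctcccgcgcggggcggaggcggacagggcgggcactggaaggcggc
Rcan1 upstream of start 2: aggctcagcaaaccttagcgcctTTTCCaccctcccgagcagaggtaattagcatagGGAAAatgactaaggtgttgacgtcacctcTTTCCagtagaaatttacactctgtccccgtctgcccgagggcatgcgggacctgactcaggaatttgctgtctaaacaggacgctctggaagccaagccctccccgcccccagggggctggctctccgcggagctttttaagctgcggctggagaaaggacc
The first window holds 0 matches and the second holds 3; gene counts do not separate the transcripts from these starts, so the levels that follow are for the gene as a whole.

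Rcan1 had 63.1 and 67.4 CPM in transdifferentiated cells, 45.5 and 43.9 CPM in muscle, and 35.9 and 31.2 CPM in MEF. The 3 groups did not overlap, with transdifferentiated cells highest. Rcan1 was 1.94-fold higher in transdifferentiated cells than in MEF (log2 fold change 0.96 ± 0.24, adjusted p = 0.0185, edgeR). The log2 fold change was 0.41 ± 0.24 in muscle over MEF (adjusted p = 0.221) and 0.55 ± 0.24 in transdifferentiated cells over muscle (adjusted p = 0.233, 95% interval -0.0020 to 1.09). The first was lost in 3 of 12 alternatives, among them the fits without MEF replicate 2 (adjusted p = 0.0934) and without transdifferentiated replicate 2 (adjusted p = 0.0769), and with a GC offset the difference from muscle was called (log2 fold change 0.61, adjusted p = 0.0368). Rcan1 was the highest of the 10 genes per kilobase of exon in transdifferentiated cells, at 21.1 CPM per kb, and its libraries there did not overlap those of the next gene, Ppp3cb, at 14.4 CPM per kb. This rank depends on the gene length used. All exons span 3085 bases in Rcan1 and 8809 in Ppp3cb, and the longest coding transcripts 2324 and 3831. By the longest coding transcript, the mean of Ppp3cb ranked above that of Rcan1 in transdifferentiated cells.

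Rcan2 (mm10 chr17:43801351-44039516, plus strand), a second inhibitor of the family, had 23.3 and 24.4 CPM in transdifferentiated cells, 14.2 and 17.02 CPM in muscle, and 15.0 and 16.5 CPM in MEF. The transdifferentiated libraries lay above all others, and the muscle and MEF libraries overlapped. Its log2 fold change was 0.60 ± 0.27 in transdifferentiated cells over MEF (adjusted p = 0.141, edgeR) and -0.02 ± 0.27 in muscle over MEF (adjusted p = 0.972, 95% interval -0.63 to 0.60). Against muscle, that of transdifferentiated cells was 0.61 ± 0.27 (adjusted p = 0.235). The RCAN pair summed to 26.6 ± 1.17 CPM per kb in transdifferentiated cells, 18.1 ± 0.0927 in muscle and 14.5 ± 0.821 in MEF (SD, n = 2 each), with Rcan1 at 79.5% of the sum in transdifferentiated cells, 80.2% in muscle and 75.0% in MEF. With a GC offset, Rcan2 was called in transdifferentiated cells over MEF (adjusted p = 0.0379).

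**Figure D3:**
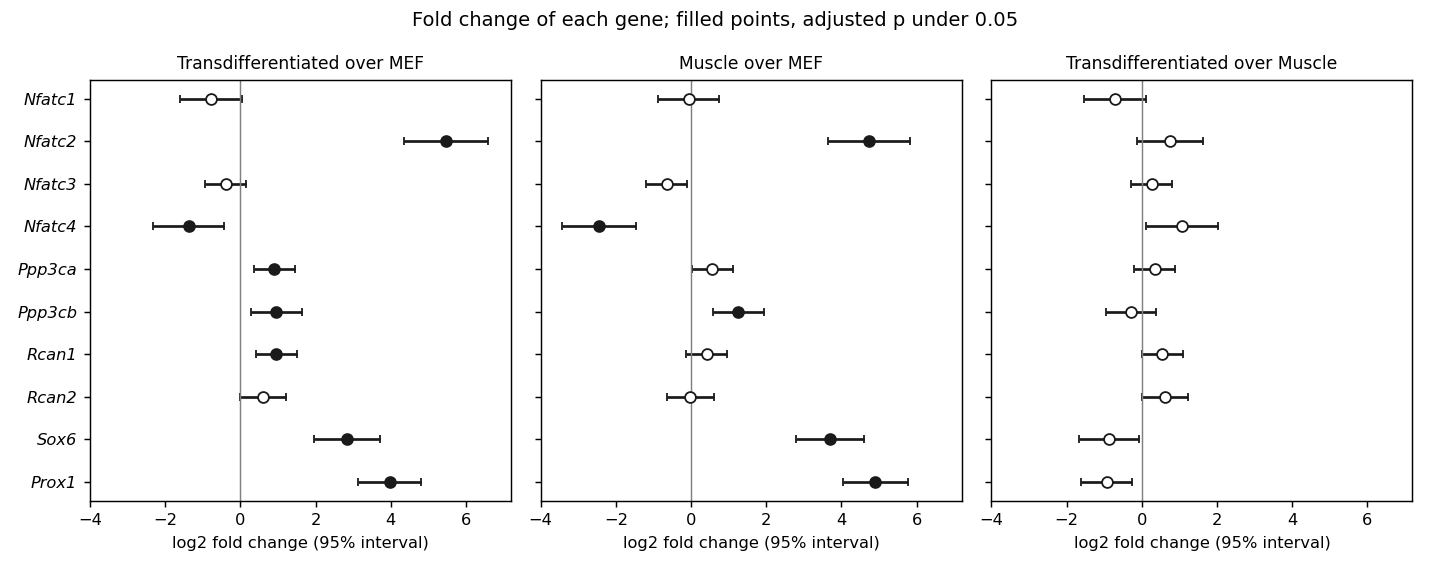
Log2 fold change of each gene with its 95% interval for transdifferentiated cells over MEF, muscle over MEF and transdifferentiated cells over muscle, filled where the adjusted p is under 0.05. The intervals of Nfatc2, Sox6 and Prox1 lie far above 0 in the 2 comparisons with MEF, and no point is filled for transdifferentiated cells over muscle.

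Sox6 and Prox1, like Nfatc2, were higher in both transdifferentiated cells and muscle than in MEF. To show what lies upstream of these 3 genes, the 250 bases upstream of the first RefSeq start of each are given, 5′ to 3′ on the minus strand of GRCm38.p6: Nfatc2 at chr2:168601658-168601907, Sox6 at chr7:116038745-116038994 and Prox1 at chr1:190170828-190171077. The capitals mark CANNTG, the letters of an E-box, which is the kind of site that myogenic factors bind and is the same read on either strand. All 32851 windows held at least 1 match in 66.2% and at least 2 in 31.8% of cases.
Nfatc2 upstream of start 1: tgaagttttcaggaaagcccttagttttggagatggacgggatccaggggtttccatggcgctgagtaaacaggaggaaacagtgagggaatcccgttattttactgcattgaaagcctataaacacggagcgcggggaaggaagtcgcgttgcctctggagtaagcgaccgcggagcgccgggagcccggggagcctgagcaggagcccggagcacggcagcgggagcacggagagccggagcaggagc
Sox6 upstream of start 1: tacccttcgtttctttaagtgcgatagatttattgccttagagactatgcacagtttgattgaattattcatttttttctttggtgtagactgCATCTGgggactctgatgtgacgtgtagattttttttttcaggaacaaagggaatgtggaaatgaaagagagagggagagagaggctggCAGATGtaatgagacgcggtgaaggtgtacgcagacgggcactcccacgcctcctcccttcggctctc
Prox1 upstream of start 1: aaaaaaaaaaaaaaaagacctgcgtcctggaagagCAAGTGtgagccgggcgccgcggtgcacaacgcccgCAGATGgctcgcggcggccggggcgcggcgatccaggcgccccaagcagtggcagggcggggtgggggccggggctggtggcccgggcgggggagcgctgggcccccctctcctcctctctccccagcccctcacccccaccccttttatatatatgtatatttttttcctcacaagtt
Nfatc2 holds 0 matches in this window, Sox6 holds 2 and Prox1 holds 2. Nfatc2 and Prox1 have 2 RefSeq starts each and Sox6 has 6, and the counts depend on the start. The window of start 2 holds 1 match for Nfatc2 and 0 for Prox1, and the later windows of Sox6 hold 1 to 3. A match is a description of the letters, and a window without one says only that they are not in these 250 bases.

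Sox6 (mm10 chr7:115470872-116038796, minus strand) had 18.4 and 24.96 CPM in transdifferentiated cells, 34.2 and 44.6 CPM in muscle, and 2.09 and 3.98 CPM in MEF, the MEF values resting on 38 and 82 reads. The 3 groups stood apart with muscle highest. Relative to MEF, Sox6 was 7.11-fold higher in transdifferentiated cells (log2 fold change 2.83 ± 0.39, adjusted p = 8.9e-04, edgeR) and 12.9-fold higher in muscle (3.69 ± 0.40, adjusted p = 1.6e-04). The log2 fold change of transdifferentiated cells over muscle was -0.86 ± 0.35 (unadjusted p = 0.0374, adjusted p = 0.192, 95% interval -1.66 to -0.06), and with a GC offset that difference was called (-0.90, adjusted p = 0.0440). Sox6 is also a cartilage gene. The 6 cartilage markers summed to 32.6 to 40.9 CPM in transdifferentiated cells, 26.2 to 33.6 CPM in muscle and 70.5 to 140 CPM in MEF. Most of that sum was Sox9, at 25.7 and 33.2 CPM in transdifferentiated cells, 31.6 and 24.8 CPM in muscle and 117 and 57.9 CPM in MEF. The part of cartilage cells in the Sox6 level was not tested.

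Prox1 (mm10 chr1:190118035-190170714, minus strand), a homeobox factor, had 10.95 and 11.9 CPM in transdifferentiated cells, 19.1 and 24.6 CPM in muscle, and 0.770 and 0.679 CPM in MEF. The MEF values rest on 14 reads in each library, and the 3 groups stood apart with muscle highest. Its level in transdifferentiated cells was 15.7-fold that in MEF (log2 fold change 3.97 ± 0.37, adjusted p = 8.4e-05, edgeR) and in muscle 29.9-fold that in MEF (4.90 ± 0.38, adjusted p = 2.0e-05). In transdifferentiated cells over muscle the log2 fold change was -0.93 ± 0.30 (unadjusted p = 0.0130, adjusted p = 0.0953, 95% interval -1.62 to -0.25), and with a GC offset it was called (-0.97, adjusted p = 0.0225). Prox1 is a marker of lymphatic endothelium; the 6 lymphatic markers summed to 56.5 to 63.4 CPM in transdifferentiated cells, 154 to 176 CPM in muscle and 351 to 379 CPM in MEF, with Ccl21a and Mmrn1 at 0 in transdifferentiated cells and muscle. Most of that sum was Pdpn, at 54.6 and 60.1 CPM in transdifferentiated cells, 154 and 175 CPM in muscle and 309 and 353 CPM in MEF. Flt4 had 40.4 and 23.7 CPM in MEF and was called lower than in MEF in both other groups. It was called higher in transdifferentiated cells over muscle (1.24 and 2.22 CPM against 0.298 and 0.122 CPM). Pdpn was called lower in that comparison, and Lyve1 and Reln were not called. The mean of Prox1 was also lower in transdifferentiated cells than in muscle, without a call. The part of these markers in the Prox1 level was not tested. Prox1 shares 133 bases, 1.59% of its exons, with its antisense gene Prox1os, which stayed at or under 0.580 CPM.

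Nfatc2, Sox6 and Prox1 were called against MEF in 12 of 12 alternative settings in both transdifferentiated cells and muscle, and Nfatc4 was in 12 of 12 in muscle. Sox6 and Prox1 together summed to 2.82 ± 0.391 CPM per kb in transdifferentiated cells, 5.26 ± 0.964 in muscle and 0.291 ± 0.0823 in MEF (SD, n = 2 each). In the authors' deposited table, whose signs run as MEF over muscle, 4 of the 10 genes are listed: Nfatc2 at a log2 fold change of -4.53, Prox1 at -4.60, Sox6 at -3.51 and Nfatc4 at 2.15. All 2806 genes of that table had an absolute log2 fold change above 2. Absence from it therefore does not show that a gene was unchanged. Ppp3cb, called higher in muscle over MEF here, had a log2 fold change of 1.25 and is not listed.

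Per kilobase of exon the order of the genes differed between groups. In transdifferentiated cells it ran Rcan1 (21.1 CPM per kb), Ppp3cb (14.4), Ppp3ca (12.03), Nfatc3 (6.84), Rcan2 (5.45), Nfatc2 (3.79), Nfatc4 (3.41), Nfatc1 (3.26), Sox6 (1.46) and Prox1 (1.36); the neighbours whose libraries overlapped were Ppp3cb with Ppp3ca, Nfatc2 with Nfatc4, Nfatc4 with Nfatc1, and Sox6 with Prox1. In muscle Ppp3cb was first at 17.7 CPM per kb, and Sox6 (2.66), Prox1 (2.605), Nfatc2 (2.26) and Nfatc4 (1.61) came last, each overlapping the next; Nfatc3 and Nfatc1 overlapped as well. In MEF Rcan1 was first at 10.9 CPM per kb, and Sox6 (0.205), Prox1 (0.0864) and Nfatc2 (0.0840) were last, with Prox1 and Nfatc2 overlapping. The neighbours from Nfatc3 through Nfatc4, Ppp3cb and Ppp3ca to Nfatc1 also overlapped in MEF. These orders depend on the gene length used. By the longest coding transcript, the means of Nfatc3 and Ppp3cb ranked above that of Rcan1 in MEF, and that of Ppp3cb did in transdifferentiated cells.

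The genes whose pattern over the 6 libraries lay nearest to a member were found as the smallest root mean square difference of centred log2 CPM among 11280 genes with a mean of at least 5 CPM. For Nfatc2 they were Vash1 (0.337), Rai2 (0.338) and Synpo2 (0.358). For Sox6 they were Usp28 (0.182), Gm45338 (0.212) and Dmd (0.262), and for Prox1 Prune2 (0.149), Tmem38a (0.150) and Abcc9 (0.172). The nearest genes of the other 7 members lay within 0.138, the difference between Nfatc4 and Mark1.

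The rest of the pathway was read from gene lists of its roles. Of 15 tested calcineurin partners, 3 rose and 3 fell in transdifferentiated cells relative to MEF, and 3 rose and 2 fell in muscle relative to MEF, where 27.3% and 35.6% of all tested genes were called; these counts and those of the lists that follow are to be read beside these shares and, between transdifferentiated cells and muscle, beside 10.04%. The count of 5 in muscle was 3 without muscle replicate 1 or muscle replicate 2. Those that rose in both were Myoz1, Myoz2 and Myoz3, sarcomere proteins that bind calcineurin. Myoz2 had 479 and 370 CPM in transdifferentiated cells, 231 and 244 CPM in muscle, and 0.110 and 0.631 CPM in MEF. Myoz1 averaged 24.4 CPM in transdifferentiated cells and 16.1 CPM in muscle and had 0 counts in MEF, so it was at least 157-fold higher in transdifferentiated cells and at least 104-fold higher in muscle, against a floor of 0.155 CPM averaged over the 2 MEF libraries. Among the genes that fell in transdifferentiated cells were Chp1 and Rcan3, at log2 fold changes of -1.02 and -0.88 over MEF. Between transdifferentiated cells and muscle 0 of the 15 were called by edgeR or by DESeq2, and 2 of the 15 had an unadjusted p under 0.05 in edgeR.

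Of 10 tested NFAT kinases and Homer proteins, which phosphorylate NFATc or bind it, 4 rose and 1 fell in transdifferentiated cells relative to MEF. The count of calls was lower without MEF replicate 1 or transdifferentiated replicate 1. Homer2, a scaffold that binds NFATc, had 11.6 and 15.96 CPM in transdifferentiated cells, 2.64 and 2.07 CPM in muscle, and 0.990 and 1.16 CPM in MEF. It was the one gene of this list that differed between transdifferentiated cells and muscle (log2 fold change 2.54 ± 0.38, adjusted p = 0.00344, edgeR). Dyrk2 and Dyrk1a, kinases that phosphorylate NFATc, were higher in both transdifferentiated cells and muscle than in MEF. Dyrk2 had 181 and 182 CPM in transdifferentiated cells, 224 and 237 CPM in muscle, and 52.9 and 62.2 CPM in MEF. Homer3, a relative of Homer2, was lower in transdifferentiated cells (log2 fold change -1.36) and in muscle (-1.23) than in MEF.

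Of 14 genes of calcium entry and release, 6 rose and 1 fell in transdifferentiated cells, and 6 rose and 5 fell in muscle, both against MEF. Ryr1, the release channel of the muscle calcium store, had 340 and 545 CPM in transdifferentiated cells, 683 and 572 CPM in muscle, and 0.660 and 0.388 CPM in MEF. The store sensor Stim1 had 73.4 and 109 CPM in transdifferentiated cells, 160 and 172 CPM in muscle, and 38.0 and 26.3 CPM in MEF. Itpr3, a release channel of non-muscle cells, was lower in both (log2 -2.25 in transdifferentiated cells and -1.44 in muscle, over MEF).

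Of 9 genes reported as NFAT targets in various cells, 5 passed the filter on low counts. Ptgs2, a prostaglandin synthase, fell in both transdifferentiated cells (log2 -3.32 over MEF) and muscle (-1.44 over MEF), and it was lower in transdifferentiated cells than in muscle (-1.88 ± 0.37, adjusted p = 0.0127, edgeR). Myf5, a myogenic factor, had 0.281 and 0.145 CPM in transdifferentiated cells and 31.0 and 38.6 CPM in muscle, and Tnf had 1.52 and 1.79 CPM in transdifferentiated cells and 0 counts in muscle. Tnf was not called in transdifferentiated cells over MEF (adjusted p = 0.289, edgeR). The 7 tested macrophage and leukocyte markers, like Tnf, were called higher in transdifferentiated cells over muscle and lower in muscle over MEF, and their part in the Tnf level was not tested.

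The fibre programmes were higher than in MEF in both other groups. All 14 tested fast-fibre genes were higher in transdifferentiated cells and in muscle, and 11 of 12 slow-fibre genes were higher in each. The exception was Tpm3, at 146 and 141 CPM in transdifferentiated cells, 242 and 324 CPM in muscle, and 289 and 279 CPM in MEF. Between transdifferentiated cells and muscle, 4 slow-fibre genes were lower: Myl2 (log2 -5.79), Myh7 (-1.10), Tpm3 (-0.98) and Tnni1 (-1.06). The regulatory light chain gene Myl2 had 2.64 and 1.94 CPM in transdifferentiated cells and 125 and 127 CPM in muscle. Of the fast-fibre genes, Myh2 was higher in transdifferentiated cells than in muscle (341 and 414 CPM against 175 and 105 CPM) and Casq1 and Mybpc2 were lower (log2 -2.57 and -1.75). When single libraries were left out, 1 to 6 slow-fibre genes (1 without muscle replicate 1, muscle replicate 2 or transdifferentiated replicate 1) and 1 to 5 fast-fibre genes (1 without muscle replicate 2) were called between transdifferentiated cells and muscle. Of 19 other fibre-type regulators, 8 rose and 1 fell against MEF in each group; 4 differed between transdifferentiated cells and muscle, among them Vgll2 and Maf, which were higher in transdifferentiated cells, and Ppargc1a, which was lower. That count of 4 was 0 without muscle replicate 2 and 2 without transdifferentiated replicate 1.

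**Figure D4:**
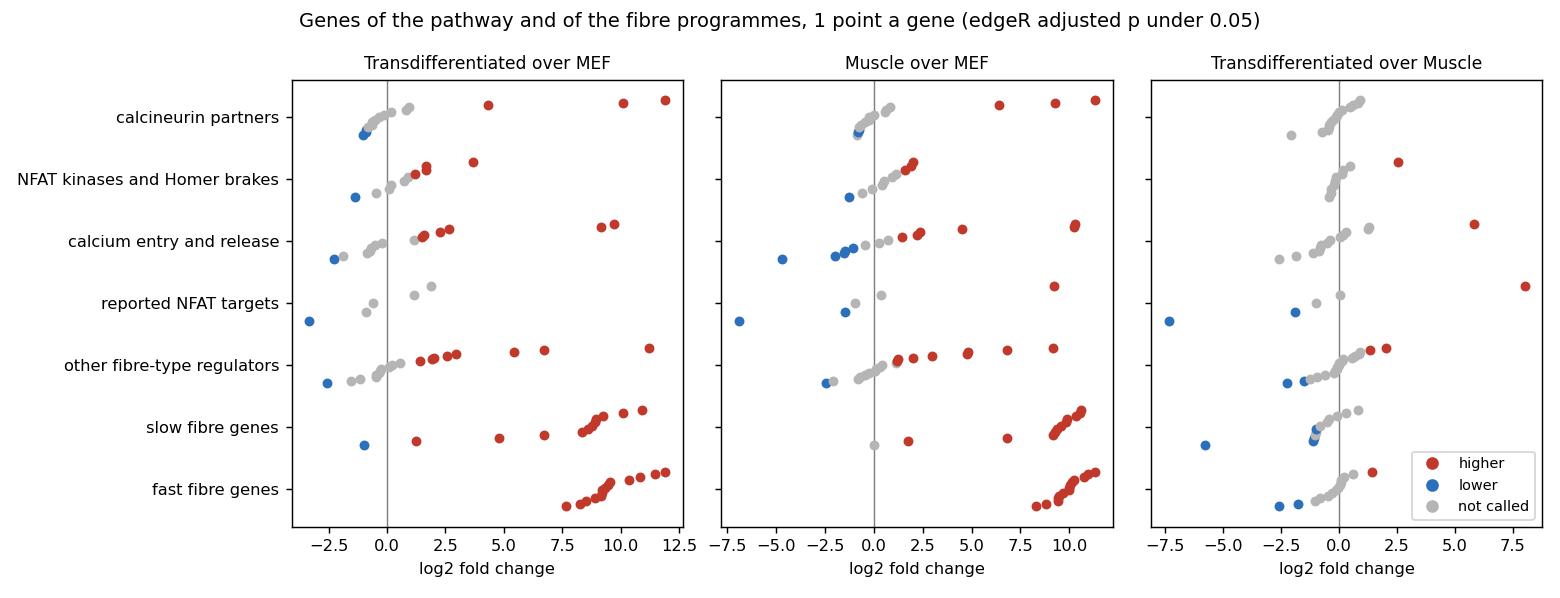
Log2 fold change of each tested gene in 7 lists for transdifferentiated cells over MEF, muscle over MEF and transdifferentiated cells over muscle, red where higher and blue where lower at an adjusted p under 0.05. The slow and fast fibre genes, apart from Tpm3 and Atp2a2, lie far to the right in both comparisons with MEF, and the calcineurin partners are split; a point for a gene with no reads in 1 group depends on the prior count.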

How the data were processed

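Per the labels' protocols, RNA was taken up on Qiagen columns, made into libraries with Lexogen's SENSE mRNA-seq V2 kit and read on a NextSeq 500 as single ends of 75 bp. Gene counts were deposited by the authors as whole numbers without normalization, 1 column a library. The authors also deposited a table of their own comparison with log2 fold changes, p-values and a mean signal per gene that was not used here; its header names no contrast, and all 2645 of its genes tested here had the sign of MEF over muscle. Per the submitters' processing notes, which give no roles, DESeq2 1.26.0, featureCounts 1.6.2, HISAT2 2.1.0, Trim Galore 0.6.0 and the build mm10 were used. The strand setting was not given in the sources used here, so overlapping genes on opposite strands cannot be told apart, and reads shared by near-identical genes may be split.

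The counts were tested with edgeR 4.0.16 in R 4.3.3: filterByExpr by group, TMM scaling and 1 quasi-likelihood fit of all 6 libraries (3 residual degrees of freedom, biological coefficient of variation 27.3%), with Benjamini-Hochberg adjustment over 17400 genes. CPM values are TMM-scaled, and CPM per kb divides them by the union of exon bases in GENCODE release M21. Intervals of fold changes use the moderated degrees of freedom. Promoter windows are the 250 bases before RefSeq starts (GRCm38.p6); 8 of the 10 genes matched. The fit was tested on simulated counts. Alternatives were DESeq2 1.42.0, its size factors, no filter, fits of 2 groups, a replicate block, a minimum fold change and leaving out each library. A GC offset, a crossed block, another gene length and the alternatives for the other lists were chosen after seeing the data.

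The 10 genes and all lists were chosen with earlier results of these data known. Named genes of a list are up to 3 per direction and comparison with the smallest adjusted p; Esrp2 and Prox1os are named for shared exons. Some genes of the lists are not reported here.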

Additional observations from a re-analysis of the deposited data

How the results depend on the processing

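Depth limits Prox1 and Nfatc2 in MEF, which rest on 12 to 23 reads a library. The replicate numbers share only a number: deviations of same-numbered samples correlated across 17400 genes at 0.31 in muscle with MEF, -0.53 in transdifferentiated cells with MEF and -0.29 in transdifferentiated cells with muscle. With the replicate block, 3 of the 10 genes (Nfatc2, Sox6 and Prox1) were called in transdifferentiated cells over MEF in place of 7, and Nfatc4 (adjusted p = 0.0631), Ppp3ca (0.0700), Ppp3cb (0.0830) and Rcan1 (0.0612) were not. With crossed numbers, chosen after seeing the data, the genes called over the whole table were 8349 in transdifferentiated cells over MEF, 9453 in muscle over MEF and 4424 in transdifferentiated cells over muscle, and the members called were 8 in muscle over MEF and 7 in transdifferentiated cells over muscle. A log2 fold change of at least 1 left 4 members in transdifferentiated cells over MEF. In transdifferentiated cells over muscle, 1 member was called without a filter and 4 with a GC offset. The offset also called 3162 genes in place of 1747, and the cause was not tested. Shares of all genes called with the replicate block, at the minimum fold change or without a filter are not reported here. Those counts of members therefore have no background beside them.

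Leaving out single libraries gave 4 to 6 members called in transdifferentiated cells over MEF, 4 to 5 in muscle over MEF and 0 to 0 in transdifferentiated cells over muscle. The counts over all genes then ranged from 3564 to 4320, against 4742 with all libraries, for transdifferentiated cells over MEF, from 3758 (without muscle replicate 2) to 6637, against 6198, for muscle over MEF, and from 729 (without muscle replicate 2) to 2221, against 1747, for transdifferentiated cells over muscle, with 908 without muscle replicate 1. Where a lone library was left in a group, it was assumed to vary like the other groups. Reversed signs were seen in muscle over MEF for Nfatc1, whose log2 fold change ranged from -0.44 (without MEF replicate 2) to 0.43 (without MEF replicate 1) and was 0.22 without muscle replicate 2, and for Rcan2, which ranged from -0.15 (without muscle replicate 2) to 0.11 (without muscle replicate 1), was 0.0486 without MEF replicate 2 and was 0.0567 with a GC offset. Both were near 0 with all libraries. With the longest coding transcript as gene length, 7 of 30 family shares moved by more than the spread between replicates, and the Sox6 share of the Sox6 and Prox1 sum became 63.1% in transdifferentiated cells and 62.2% in muscle, against 51.5% and 50.5% with all exons.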
